A study of Mus musculus with 16 samples.

Results

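Mouse 2-cell embryos from zygotes that received LacZ double-stranded RNA by injection were compared with embryos that had not been injected. The comparison uses 10 of the 16 libraries of the series, 6 labelled as LacZ-injected controls and 4 labelled as non-injected, and the groups follow the label of what was injected. All had DBA fathers, with mothers that were F1 hybrids of C57BL/6J and CBA/H, and grew in KSOM medium. Their polyadenylated RNA was sequenced by Smart-seq2, which reads whole transcripts without keeping the strand. In the 6 other libraries the injected double-stranded RNA targeted Suv39h2. The design text speaks of pools of 5 embryos and the extraction protocol of single embryos, so the number of embryos behind a library is uncertain. The treatment protocol names Suv39h1 messenger RNA, which the labels of these groups do not mention. Nothing in the labels says that libraries of a group came from separate crosses or days, so p-values measure only the spread between libraries. By the names of the deposited comparisons, it is the spread left after a RUVSeq correction, whose number of factors is not given. The deposited gene comparisons add up gene by gene, as given below, so that spread may include the 6 knockdown libraries. The genes described are the 14830 of 49585 with a mean normalized count of 10 or more, and the repeats are the 860 of 1141 with that mean. The mean count of a gene is over all 16 libraries, so the knockdown libraries count towards it.

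Fertilised mouse eggs start with transcripts stored by the oocyte, destroy most of them, and switch on their own genome in a first burst at the 2-cell stage. Long double-stranded RNA is cut by Dicer into short RNAs that lead Argonaute proteins to matching transcripts, and mouse oocytes and early embryos allow this with little of the interferon response seen in most somatic cells. LacZ is a bacterial gene without a mouse counterpart, so its double-stranded RNA serves as a control for the injection and for the presence of double-stranded RNA.

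The promoters of 4 of the genes with a changed transcript level are shown because windows with few CG pairs were more frequent among the risen genes than among all genes, as counted below. They were chosen after their values were seen, Obox1 and Obox7 for few CG pairs and Prkcd for many. Smpd1 is no such example: its 16 CG pairs lie below the median of 20 over all windows. The windows of the fallen genes had a median of 14, so many CG pairs are not a mark of the fallen genes. Obox1 and Obox7, oocyte homeobox genes, rose, while Prkcd, a protein kinase C, and Smpd1, the acid sphingomyelinase, fell. Each window runs from 250 bases before to 50 bases after a RefSeq transcription start on GRCm38.p6, and capitals mark CG pairs. The Obox1 window is chr7:15547007-15547306 on the plus strand, with 1 CG pair and a GC content of 42.3%. The Obox7 window is chr7:14659458-14659757 on the plus strand, with 1 CG pair and a GC content of 39.7%. The Prkcd window is chr14:30626159-30626458 on the minus strand, with 26 CG pairs and a GC content of 69.3%. The Smpd1 window is chr7:105554110-105554409 on the plus strand, with 16 CG pairs and a GC content of 63%.
Obox1: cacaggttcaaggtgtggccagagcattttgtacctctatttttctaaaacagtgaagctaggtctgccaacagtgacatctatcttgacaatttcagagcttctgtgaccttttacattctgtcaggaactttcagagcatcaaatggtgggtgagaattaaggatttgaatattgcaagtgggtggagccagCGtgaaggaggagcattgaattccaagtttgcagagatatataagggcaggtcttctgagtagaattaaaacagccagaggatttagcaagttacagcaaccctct
Obox7: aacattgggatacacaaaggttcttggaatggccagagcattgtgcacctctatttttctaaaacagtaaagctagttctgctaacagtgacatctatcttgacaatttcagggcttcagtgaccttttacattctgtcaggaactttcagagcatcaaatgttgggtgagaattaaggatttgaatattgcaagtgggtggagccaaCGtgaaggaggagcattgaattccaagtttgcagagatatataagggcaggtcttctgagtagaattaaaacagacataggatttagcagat
Prkcd: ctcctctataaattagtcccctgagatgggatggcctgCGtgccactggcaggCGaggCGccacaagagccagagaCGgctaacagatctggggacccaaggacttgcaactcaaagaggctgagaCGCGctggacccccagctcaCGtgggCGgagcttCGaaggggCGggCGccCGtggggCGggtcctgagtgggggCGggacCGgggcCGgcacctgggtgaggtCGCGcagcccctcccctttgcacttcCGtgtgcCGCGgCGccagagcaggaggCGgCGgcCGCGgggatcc
Smpd1: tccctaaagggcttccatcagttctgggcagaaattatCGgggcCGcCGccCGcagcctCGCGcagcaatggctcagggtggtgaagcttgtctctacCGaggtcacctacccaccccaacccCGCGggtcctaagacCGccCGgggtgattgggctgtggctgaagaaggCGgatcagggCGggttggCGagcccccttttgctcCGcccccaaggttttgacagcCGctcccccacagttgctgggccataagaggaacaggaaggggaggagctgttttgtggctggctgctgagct
The Obox1 and Obox7 windows were 86.3% identical when aligned. The letters TATAA occur on the gene's strand in 3 of the 4 windows, beginning 17 bases before the annotated start in Obox1, 3 in Obox7 and 244 in Prkcd.

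LacZ-injected embryos carried more of several oocyte and early embryo transcripts, among them Nlrp4f, Fbxw22, Obox1, Ldhb and the Tcstv genes, and less of the signalling kinase Prkcd, the lipid enzymes Smpd1 and Ptdss2 and the nuclear import receptor Tnpo3. Of the 14830 genes, 93 were called, meaning an adjusted p under 0.05 in the authors' deposited table (0.627%). Of these, 73 were higher after LacZ injection (0.492%) and 20 were lower (0.135%). A change of at least 1 on the log2 scale was seen in 40 of the risen and 13 of the fallen genes. At an unadjusted p under 0.05, 1067 genes were higher (7.19%) and 700 lower (4.72%). The median log2 fold change over all described genes was 0.02, and for 9934 genes (67%) the 95% interval, taken from the standard error, lay within 1 of 0. The deposited adjustment covers 29288 genes, many with very low counts. Adjusting over the 14830 described genes instead kept 62 of the 93, 48 higher and 14 lower, and the deposited fold change over its standard error called 43 of them, 35 higher and 8 lower. Genes that lose the call in the first of these are marked below as near the threshold. Other genes named below keep the call in the first and lose it in the second, among them Zdhhc12, Tmem37, Mageb4, Lpcat2, Gcm1, Particl, Ttc14, Ada and Npas3. Exons of 25 of the 93 overlap a gene on the opposite strand, Lcp2, Npas3, Gcnt4 and Ttc14 among them, so part of their reads may belong to the other gene.

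**Figure D1:**
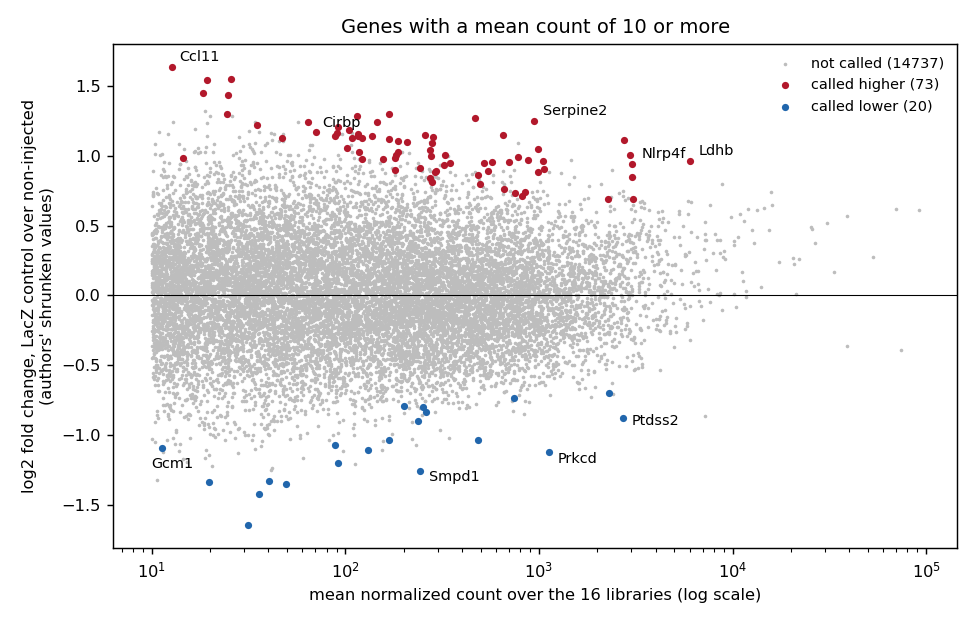
Each point is a described gene, by its mean normalized count (x axis, log scale) and the authors' log2 fold change of LacZ control over non-injected embryos (y axis). The 73 genes called higher and 20 called lower lie between a mean count of 11.3 (Gcm1) and 6028 (Ldhb).

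The tables hold no values of single libraries, so neither the spread within a group nor the depth of a library can be given, and every value is a fold change with its standard error from the authors' deposited table. Fold changes are LacZ control over non-injected, were shrunken towards 0 by the authors, and understate changes of weakly expressed genes. The direction was checked by the knockdown target: the fold changes of the 3 deposited comparisons add up gene by gene, to within 4.2e-08, and Suv39h2 is lower in knockdown. Suv39h2 itself differed between LacZ control and non-injected embryos by 0.16 ± 0.29 (DESeq2 adjusted p = 0.998, from the authors' deposited table), with a 95% interval of -0.42 to 0.73. The 7 markers of 2-cell embryos had mean counts of 352 to 2987 and the 7 markers of egg and zygote 205 to 26588. None of 6 sperm markers reached a mean of 10, with a highest mean of 7.78 (Prm2). Of 5 blood markers, Hba-a1 reached it (154), and Hbb-bs is listed at 0. Of 10 cumulus and granulosa markers 4 reached it, with Amhr2 at 407, while the defining genes Fshr, Foxl2 and Amh had means of 0.045, 0.158 and 0.667. In whole embryos, fewer cells carrying a transcript and less of it per cell cannot be told apart.

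Among the transcripts that fell, Prkcd, which encodes the delta isoform of protein kinase C, had the smallest adjusted p of all described genes. Prkcd (chromosome 14, 30595354 to 30626210, minus strand, protein-coding) fell by 1.12 on the log2 scale, with a standard error of 0.21, or 2.18-fold (DESeq2 adjusted p = 0.000104, from the authors' deposited table). Its level, 203 normalized counts per exon kilobase over all libraries, was the second highest of the named genes that fell, after Ptdss2 at 482. The fall remained with adjustment over the described genes (adjusted p = 0.00176) and with the fold change over its standard error (adjusted p = 0.00182).

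Enzymes that act on membrane lipids were found on both sides, a grouping made after the values were seen and therefore given without a test. Smpd1 (chromosome 7, 105554360 to 105558389, plus strand), the lysosomal enzyme that splits sphingomyelin into ceramide, fell by 1.26 ± 0.33 (DESeq2 adjusted p = 0.0176, from the authors' deposited table). The related Smpdl3b, anchored at the cell surface, fell by 1.20 ± 0.33 (adjusted p = 0.0449, from the authors' deposited table) and is near the threshold (0.0595 over the described genes). Ptdss2, which makes phosphatidylserine, fell by 0.88 ± 0.24 (adjusted p = 0.0442, from the authors' deposited table), also near the threshold (0.0595). Mtmr12, an inactive partner of phosphoinositide phosphatases, fell by 1.11 ± 0.26 (adjusted p = 0.00610, from the authors' deposited table). Lpcat2, which rebuilds phosphatidylcholine, went the other way, with a rise of 1.12 ± 0.30 (adjusted p = 0.0265, from the authors' deposited table). The call of Lpcat2 is lost with the fold change over its standard error (adjusted p = 0.0581). Smpd1 was the only called gene among 23 described members of a list of membrane repair genes and annexins, whose median was -0.01.

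Large falls were seen among weakly expressed membrane, Golgi and germ cell genes. The palmitoyltransferase gene Zdhhc12 fell by 1.43 ± 0.38 and Tmem37, related to calcium channel subunits, by 1.35 ± 0.38 (DESeq2 adjusted p = 0.0265 and 0.0284, from the authors' deposited table). Exons of Zdhhc12 overlap Pkn3 on the opposite strand, so the gene of origin of some reads is uncertain. Mageb4, a germ cell gene of the MAGE family, fell by 1.34 ± 0.40 (adjusted p = 0.0284, from the authors' deposited table). The Golgi protein gene Tmem115 fell by 1.33 ± 0.37 (adjusted p = 0.0445, from the authors' deposited table) and is near the threshold. Mean counts of these genes were low, from 19.9 for Mageb4 to 49.3 for Tmem37. Slc39a4, a zinc importer, had a higher level, 156 counts per exon kilobase, and fell by 1.04 ± 0.29 (adjusted p = 0.0436, from the authors' deposited table), near the threshold.

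Of the regulators that fell, Gcm1, a transcription factor of the trophoblast, was just inside the minimum, with a mean count of 11.3 and a fold change of -1.09 ± 0.40 (DESeq2 adjusted p = 0.0183, from the authors' deposited table). That mean includes the knockdown libraries, where Gcm1 stood higher, as given below, so it may lie under the minimum in the libraries compared. Its call is lost with the fold change over its standard error (adjusted p = 0.206). The sarcomere protein gene Mypn fell by 1.07 ± 0.28 and Ttc14 by 0.84 ± 0.23 (adjusted p = 0.0228 and 0.0304, from the authors' deposited table). Particl, a long RNA transcribed next to Mat2a, fell by 1.04 ± 0.27 (adjusted p = 0.0259, from the authors' deposited table), but its exons overlap Mat2a on the other strand. Tnpo3, which imports SR splicing factors into the nucleus, fell by 0.70 ± 0.19 (adjusted p = 0.0445, from the authors' deposited table), near the threshold, and overlaps Irf5. Mfsd14b, a putative transporter, fell by 0.73 ± 0.17 (adjusted p = 0.00430, from the authors' deposited table).

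On the rising side, the largest fold changes also belonged to low transcripts, several of them known from cells other than embryos. Ccl11, the chemokine eotaxin (chromosome 11, 82057823 to 82062955), rose by 1.64 ± 0.40 in the authors' deposited table, 3.11-fold (DESeq2 adjusted p = 0.00131), at a mean count of 12.7. Rnf32, a RING finger gene, rose by 1.55 ± 0.36 and Lcp2, an adaptor of leukocyte receptors, by 1.54 ± 0.40 (adjusted p = 0.00460 for both, from the authors' deposited table). The neuronal transcription factor gene Npas3 rose by 1.30 ± 0.36 and the lectin receptor gene Clec12a by 1.29 ± 0.33 (adjusted p = 0.0307 and 0.0117, from the authors' deposited table). Slamf1, a lymphocyte receptor, rose by 1.17 ± 0.33 (adjusted p = 0.0481, from the authors' deposited table), near the threshold. The leukocyte gene Ptprc, which marks blood cells in general, had a mean count of 0.709 over all libraries. Of 15 blood and leukocyte markers 3 were described and 0 called, 0 of them at an unadjusted p under 0.05.

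Serpine2, a secreted inhibitor of serine proteases that granulosa cells are known to make, rose at a higher level. Serpine2 (chromosome 1, 79794197 to 79861180, minus strand) rose by 1.25 ± 0.25 in the authors' deposited table, 2.38-fold (DESeq2 adjusted p = 0.00049), at 113 counts per exon kilobase. It was the only called gene among the 8 described of 25 cumulus and granulosa markers, whose median was 0.43. Of the 7 others, Cyp19a1, Tnfaip6, Kitl, Ptgs2 and Col4a2 had log2 fold changes of 0.63, 0.60, 0.47, 0.39 and 0.26 by the authors' deposited table, all at mean counts under 50 and without a call. Amhr2 and Gja1, at higher mean counts of 407 and 511, stood at -0.62 and -0.21 by the authors' deposited table, also without a call. With Serpine2 these are the only 3 members with a mean count of 100 or more. The summed level of these markers in each group cannot be given from these tables, and the part of such cells in the Serpine2 result was not tested.

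Other rises of known enzymes and membrane proteins were of similar size. Gcnt4, which branches sugars on glycoproteins, and Sgcd, a sarcoglycan, rose by 1.24 ± 0.31 and 1.24 ± 0.30 (DESeq2 adjusted p = 0.00858 and 0.00780, from the authors' deposited table). The adenosine deaminase gene Ada rose by 1.19 ± 0.33 (adjusted p = 0.0312, from the authors' deposited table). Psenen, a subunit of gamma-secretase, rose by 1.15 ± 0.26 (adjusted p = 0.00210, from the authors' deposited table) at 509 counts per exon kilobase, with exons that overlap U2af1l4 on the opposite strand. Cirbp, a cold-inducible RNA-binding protein, rose by 1.14 ± 0.29 (adjusted p = 0.0125, from the authors' deposited table). It was the only called gene of 63 described on a list of spliceosome genes and splicing factors, whose median was -0.04. On that list 1 gene was higher and 5 lower at an unadjusted p under 0.05 (all genes, 7.19% and 4.72%). Chrng, an acetylcholine receptor subunit, rose by 1.22 ± 0.40 (adjusted p = 0.0364, from the authors' deposited table) and is near the threshold (0.0564). Trappc3l, a vesicle transport gene, and Speer4a, of a repeated germ cell family, rose by 1.14 ± 0.29 and 1.17 ± 0.28 (adjusted p = 0.0106 and 0.00682, from the authors' deposited table).

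Per exon kilobase, the most abundant of the named risen genes was Ldhb, the lactate dehydrogenase subunit typical of oocytes, at 3840 normalized counts. Ldhb (chromosome 6, 142490249 to 142507957, minus strand) rose by 0.97 ± 0.23 in the authors' deposited table, 1.95-fold (DESeq2 adjusted p = 0.00486). It was the only called gene of 32 described in a list of glycolysis, pyruvate and lactate use, whose median was -0.01. Skp1a, a core subunit of SCF ubiquitin ligases, rose by 0.85 ± 0.18 (adjusted p = 0.00112, from the authors' deposited table) at 1362 counts per exon kilobase. Khdc1a, a KH domain gene expressed in early embryos, rose by 0.69 ± 0.18 (adjusted p = 0.0162, from the authors' deposited table) at 1140. Of the 50-base words in the Khdc1a transcript, 43.5% also occur in Khdc1c, Khdc1b or other genes, against 27% for Ldhb, and no source used here says how reads matching several genes were counted.

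Most genes stored by the oocyte had fold changes above 0 after LacZ injection, though few were called. Of 78 described maternal oocyte genes, 4 were called higher and 0 lower (all genes, 0.492% and 0.135%). At an unadjusted p under 0.05, 30 were higher and 0 lower (all genes, 7.19% and 4.72%), and 72 lay above 0. Their median log2 fold change was 0.45, beside 0.02 for all genes. Fbxw22, an oocyte F-box gene, rose by 1.0 ± 0.23 and Nlrp4f, of the oocyte NLRP family, by 0.94 ± 0.21 (DESeq2 adjusted p = 0.00437 and 0.00279, from the authors' deposited table). Obox1 rose by 0.91 ± 0.23 (adjusted p = 0.0166, from the authors' deposited table). Kpna7, the importin alpha of oocytes, rose by 0.73 ± 0.21 (adjusted p = 0.0445, from the authors' deposited table), near the threshold and with exons that overlap Arpc1a. Obox7, not on the list and chosen after its value was seen, rose by 1.04 ± 0.27 (adjusted p = 0.0183, from the authors' deposited table). The Obox1 transcript shares 59.3% of its 50-base words with Obox2, Obox5, Obox7 and other genes, so its reads may not be its own.

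By role, all 3 listed oocyte homeobox genes had an unadjusted p under 0.05, with log2 fold changes of 0.68 to 0.91. The 10 F-box genes ranged from 0.26 to 1.0 and the 10 NLRP genes outside the subcortical complex from 0.01 to 0.94. The 8 Oog and Tcl1 genes ranged from 0.26 to 0.76, with a median of 0.50. The 6 genes of the subcortical maternal complex, a protein lattice under the egg membrane, had a lower median of 0.09 and 1 member at an unadjusted p under 0.05. For the growth factor Gdf9 the fold change was 0.67 ± 0.23 (DESeq2 adjusted p = 0.228, from the authors' deposited table), and for Btg4, an adaptor of maternal transcript decay, 0.65 ± 0.23 (adjusted p = 0.262). The oocyte linker histone H1foo stood at 0.75 ± 0.27 and the nucleoplasmin Npm2 at 0.72 ± 0.23 (adjusted p = 0.262 and 0.135, from the authors' deposited table). None of these 4 passed the test, and like other uncalled genes named here they were chosen after their values were seen. A list of 39 described clearance factors, which deadenylate and decap transcripts, had 0 calls, 3 higher and 2 lower at an unadjusted p under 0.05, and a median of 0.15.

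**Figure D2:**
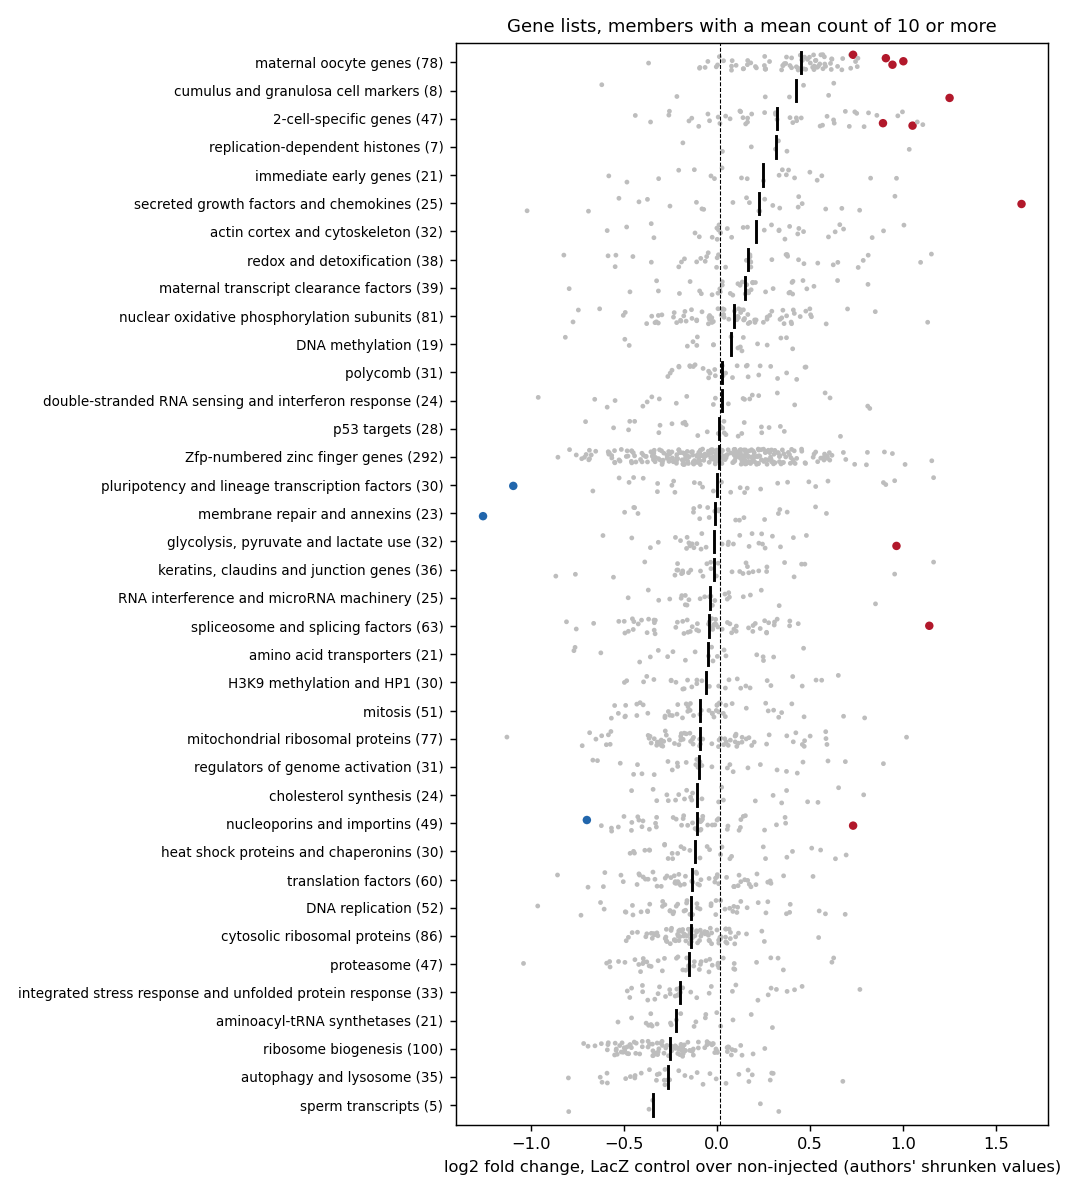
Log2 fold change of LacZ control over non-injected (x axis) for each described member of a gene list (rows, number of members in brackets); black bars are list medians, the dashed line the median of all genes, and red and blue points are genes called higher and lower. The maternal oocyte genes have a median of 0.45 and 4 called members, the ribosome biogenesis genes a median of -0.25 and none.

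Most genes of the 2-cell burst also had fold changes above 0, though few were called. Of 47 described 2-cell-specific genes 2 were called higher and 0 lower (all genes, 0.492% and 0.135%), and 14 were higher and 0 lower at an unadjusted p under 0.05 (all genes, 7.19% and 4.72%). The median was 0.32, beside 0.02 for all genes, and 38 of the 47 lay above 0. Among the 9 below 0 were Pramel6, Usp17lb, Ubtfl1, Eif1a and Snai1, from -0.44 to -0.10 in the authors' deposited table. The called members were Tcstv1, which rose by 1.05 ± 0.26 (DESeq2 adjusted p = 0.00964, from the authors' deposited table), and Tcstv3, which rose by 0.89 ± 0.25 (adjusted p = 0.0445), near the threshold. Other families on the list did not pass the test. Zscan4c and Zscan4d, telomere regulators of 2-cell embryos, stood at 0.75 ± 0.33 and 0.69 ± 0.30 (adjusted p = 0.447 and 0.471, from the authors' deposited table). Tdpoz4, of a family of BTB domain genes, stood at 0.82 ± 0.25 (adjusted p = 0.092, from the authors' deposited table). Duxf3, the Dux gene that activates this set, stood at -0.36 ± 0.40 in the authors' deposited table at a mean count of 14 (adjusted p = 0.998). Among 31 described regulators of genome activation 0 were called, 2 were higher and 3 lower at an unadjusted p under 0.05, and the median was -0.09.

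The Tcstv genes lie together on chromosome 13 (119893388 to 120318178), where 16 gene identifiers fill 425 kb. Of the 10 described there, 5 were called higher, 8 had an unadjusted p under 0.05 and all 10 lay above 0, with a median of 0.96. Adjustment over the described genes kept 4 of the 5. BC147527 rose by 1.15 ± 0.22 (DESeq2 adjusted p = 0.00024, from the authors' deposited table) and Gm21818 by 1.10 ± 0.23 (adjusted p = 0.000822). Gm20767 rose by 1.30 ± 0.30 (adjusted p = 0.00358, from the authors' deposited table). The called genes share part of their sequence with other genes, many of them in this same region. Such shared 50-base words made up 70.2% of Gm20767, 34.1% of Gm21818, 31.4% of Tcstv3, 16.8% of Tcstv1 and 14.3% of BC147527. Gm21818, for example, shares words with Tcstv1, Tcstv3 and Gm20767. The same reads may thus count for several of the 10 genes, so their rises may not be separate observations. The lowest of the 10, Gm21762, stood at 0.18 ± 0.30 (adjusted p = 0.998, from the authors' deposited table). Chromosome 13 as a whole held 11 called genes among 517 described (2.13%, against 0.627% over all genes), and 5 of the 11 are those of this region.

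**Figure D3:**
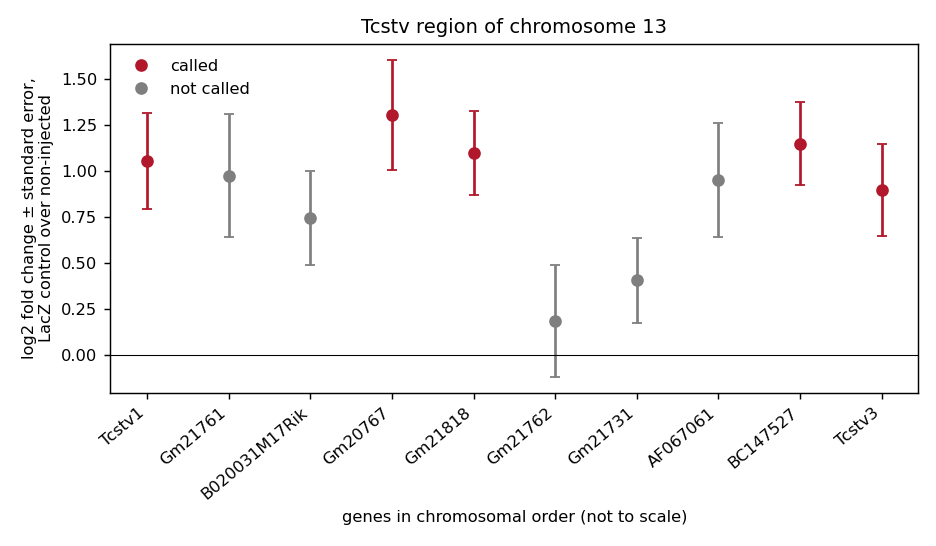
Log2 fold change of LacZ control over non-injected with its standard error (y axis) for the 10 described genes of the Tcstv region in chromosomal order (x axis); red points are called. The fold changes run from 0.18 to 1.30, and the 5 called genes are interspersed with uncalled ones.

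For genes that sense double-stranded RNA or respond to interferon, 24 of 44 listed were described. Of these 0 were called by DESeq2, near the 0.627% called over all genes. At an unadjusted p under 0.05, 2 were higher and 3 lower (all genes, 7.19% and 4.72%), and the median was 0.03. The cytosolic sensor gene Ddx58, which encodes RIG-I, stood at 0.58 ± 0.28 and the interferon-induced Ifitm3 at 0.81 ± 0.29 (adjusted p = 0.602 and 0.254, from the authors' deposited table). Ifitm1, another member of that family, stood at -0.96 ± 0.40 (adjusted p = 0.374, from the authors' deposited table). The master regulator Irf7 stood at -0.16 ± 0.40 in the authors' deposited table, at a mean count of 13.2. The oocyte-type Oas1d, Oas1e and Oas1c, relatives of the 2-5A synthetases, had log2 fold changes of 0.18, 0.33 and 0.42 by the authors' deposited table. The 95% interval lay within 1 of 0 for 14 of the 24, so for the other 10 a 2-fold change lies inside the interval.

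Outside that list, 2 called genes with a link to such responses were picked out after their values were seen. Ifit1bl2, a relative of the interferon-induced IFIT genes, rose by 1.01 ± 0.28 (DESeq2 adjusted p = 0.0334, from the authors' deposited table), near the threshold (0.0526 over the described genes). Zcchc3, a zinc finger protein known to assist RIG-I-like sensors, rose by 0.76 ± 0.20 (adjusted p = 0.0266, from the authors' deposited table).

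In the machinery of RNA interference, 0 of 25 described genes were called by DESeq2, again near the 0.627% over all genes. At an unadjusted p under 0.05, 1 was higher and 0 lower (all genes, 7.19% and 4.72%), the median was -0.04, and for 24 the 95% interval lay within 1 of 0. Dicer1, which cuts long double-stranded RNA, stood at -0.15 ± 0.23 (adjusted p = 0.998, from the authors' deposited table). Ago2, the slicing Argonaute, stood at -0.37 ± 0.29 (adjusted p = 0.968, from the authors' deposited table). The gene below an unadjusted p of 0.05 was Lin28a, which blocks maturation of let-7, at 0.85 ± 0.30 (adjusted p = 0.217, from the authors' deposited table).

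Lists of damage and stress genes gave 0 calls by DESeq2 apart from Smpd1, near the 0.627% called over all genes. At an unadjusted p under 0.05, where all genes had 7.19% higher and 4.72% lower, 0 of 28 described p53 targets were higher and 2 lower, and 2 of 21 immediate early genes were higher and 1 lower. In the integrated stress and unfolded protein responses 2 of 33 were higher and 0 lower, with a median of -0.20. Ddit3, which encodes CHOP, stood at 0.77 ± 0.33 (adjusted p = 0.477, from the authors' deposited table). Among 30 heat shock genes 4 were higher and 2 lower, and Hspe1, the mitochondrial co-chaperonin, stood at 0.70 ± 0.20 (adjusted p = 0.0724, from the authors' deposited table). Redox genes had 9 of 38 higher and 3 lower, with a median of 0.17. G6pdx, which supplies NADPH, stood at 0.79 ± 0.23 and the reductase Akr1b8 at 1.15 ± 0.38 (adjusted p = 0.0655 and 0.0743, from the authors' deposited table). Of 32 actin and cortex genes 7 were higher and 0 lower, with a median of 0.21, and Actb stood at 0.90 ± 0.29 (adjusted p = 0.146, from the authors' deposited table).

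Several lists of growth functions, and a list of autophagy and lysosome genes, had medians below 0, without a call. Of 100 described ribosome biogenesis genes 0 were called by DESeq2, 0 were higher and 15 lower at an unadjusted p under 0.05 (all genes, 7.19% and 4.72%), and 87 lay below 0, with a median of -0.25. Rrp36, which processes the small subunit RNA, stood at -0.69 ± 0.21 and Ppan, a large subunit factor, at -0.72 ± 0.25 (adjusted p = 0.116 and 0.239, from the authors' deposited table). The 86 cytosolic ribosomal protein genes had a median of -0.14, with 1 higher and 1 lower at an unadjusted p under 0.05. Of 35 autophagy and lysosome genes 1 was higher and 5 lower, with a median of -0.26. The cathepsin gene Ctsz stood at -0.80 ± 0.26 (adjusted p = 0.169, from the authors' deposited table). Genes of DNA replication had a median of -0.14, with 2 of 52 higher and 7 lower, and mitosis genes a median of -0.09, with 3 of 51 higher and 3 lower. Nuclear-encoded subunits of oxidative phosphorylation had 7 of 81 higher and 2 lower, with a median of 0.10.

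Chromatin and lineage genes had a single call. In the list of H3K9 methylation and HP1 genes, which holds the enzymes related to the knockdown target, 0 of 30 were called, 2 were higher and 2 lower at an unadjusted p under 0.05, and the median was -0.06. Suv39h1 stood at -0.13 ± 0.20 (DESeq2 adjusted p = 0.998, from the authors' deposited table). DNA methylation genes had 0 of 19 called with 0 higher and 2 lower, and polycomb genes 0 of 31 with 1 higher and 0 lower. Of 30 lineage transcription factors and markers Gcm1 alone was called. Pou5f1, the pluripotency factor Oct4, stood at 0.90 ± 0.27 (adjusted p = 0.0857, from the authors' deposited table), and the keratin gene Krt8 at 1.17 ± 0.37 (adjusted p = 0.0787). The 292 described Zfp-numbered zinc finger genes had 0 calls, 11 higher and 9 lower at an unadjusted p under 0.05, and a median of 0.01.

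The fold change moved with base composition across genes. By the longest transcript of each gene, the genes called higher had a median of 45.7% GC and the genes called lower 52.9%, against 49.1% for genes not called. With all genes split by GC into 5 groups of 2960, the median log2 fold change went from 0.11 in the poorest (28.1% to 43.6%) through 0.07, 0.02 and -0.04 to -0.11 in the richest (54.7% to 82.9%). The maternal list had a median GC of 45% and the 2-cell list 45.6%, which fall in the next poorest group, whose median of 0.07 lies below the list medians of 0.45 and 0.32. The exons of the risen genes, merged over all annotated transcripts of a gene, also covered fewer bases. Their median was 2428 bases against 3024 for the fallen and 3856 for the uncalled genes. What part base composition or length plays in the calls was not tested.

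For promoters, a RefSeq window was matched by symbol for 10488 of the described genes, 51 risen and 15 fallen. The median window held 20 CG pairs over all these genes, 12 for the risen and 14 for the fallen. Under 5 CG pairs were found in 19 of 51 risen genes (37.3%), among them Obox1, Obox7, Nlrp4f, Kpna7 and Lcp2, in 1 of 15 fallen genes (6.67%), Gcm1, and in 11% of all. Read the other way, 19 of the 1151 genes with under 5 CG pairs were called higher (1.65%) and 1 lower, and their median log2 fold change was 0.16. With 20 or more CG pairs, 14 of 5461 were called higher (0.256%) and 5 lower, with a median of -0.02. The letters TATAA on the gene's strand, from 40 to 16 bases before the start, occurred in 3 of 51 risen and 0 of 15 fallen genes and in 2.54% of all windows. Over the whole window and both strands, they occurred in 13 of 51 risen (25.5%) and 5 of 15 fallen genes (33.3%) and in 14.3% of all.

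Transcripts of repeats did not reach the threshold. Of the 860 described repeats 0 were called by DESeq2 (0%), while at an unadjusted p under 0.05 28 were higher (3.26%) and 6 lower (0.698%), and the median log2 fold change was 0.11. The headers do not state the sign of the repeat table. It was read as LacZ control over non-injected because 10 of 11 gene models made of satellite sequence then share the sign of the major satellite GSAT_MM, as all 11 do in each knockdown comparison. The smallest deposited adjusted p was that of MAMGYPSY2-I, an old Gypsy-like element, at 1.13 ± 0.30 (adjusted p = 0.0605, from the authors' deposited table). With Benjamini-Hochberg adjustment over the repeats alone, the smallest adjusted p of any described repeat was 0.196, and of any IAP element 0.521. The deposited values given here are smaller than that adjustment gives. The ERV1 element MER34B-INT stood at 0.75 ± 0.21 (adjusted p = 0.0726, from the authors' deposited table). IAPEZ-INT, the body of the mouse IAP retrovirus, stood at 0.50 ± 0.16 (adjusted p = 0.182, from the authors' deposited table).

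The retrovirus that marks the 2-cell stage was near 0. MERVL-INT stood at -0.01 ± 0.19 and its promoter repeat MT2_MM at 0.06 ± 0.19 (DESeq2 adjusted p = 0.993 and 0.960, from the authors' deposited table), with 95% intervals of -0.38 to 0.36 and -0.31 to 0.43. Young LINE-1 elements were near 0 as well, with L1MD_T at 0.19 ± 0.19 and L1MD_A at 0.08 ± 0.18 (adjusted p = 0.807 and 0.935, from the authors' deposited table). The major satellite GSAT_MM stood at 0.37 ± 0.20 (adjusted p = 0.548, from the authors' deposited table). Of the repeat groups with at least 3 members, the 5 elements of SINE B2 and B3 had the highest median, 0.53, with a range of 0.04 to 0.59. B2_MM2 stood at 0.59 ± 0.28 (adjusted p = 0.424, from the authors' deposited table). No source used here says whether the repeats were normalized together with the genes. Repeat reads in transcripts cannot be told from transcripts that start in a repeat.

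**Figure D4:**
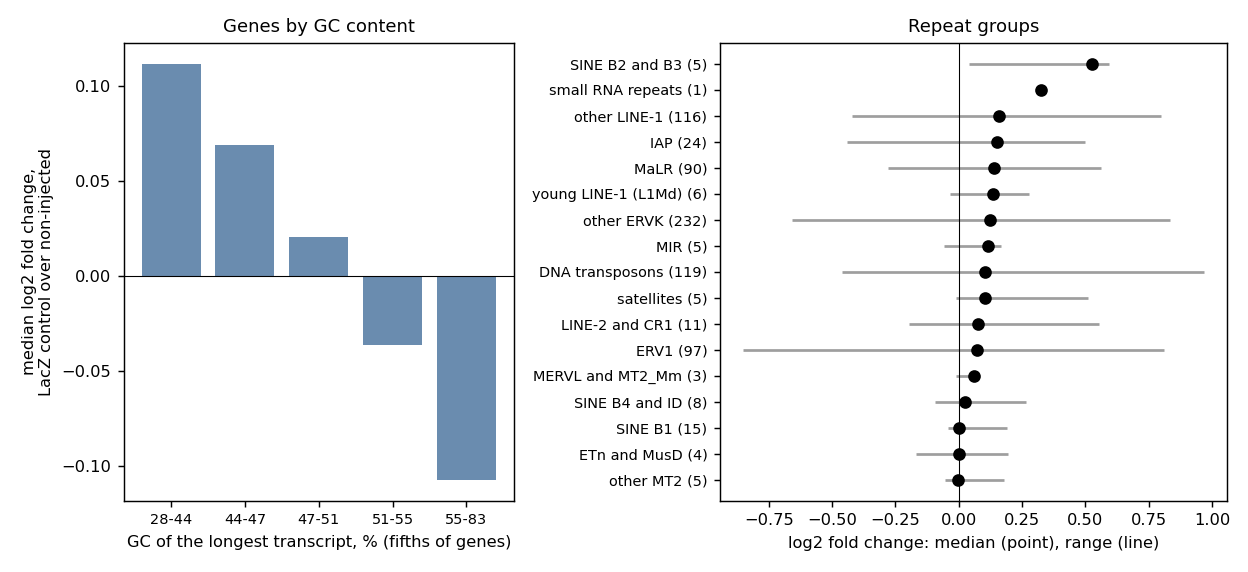
Left, the median log2 fold change of LacZ control over non-injected (y axis) for 5 equal groups of genes by transcript GC (x axis, %), which goes from 0.11 to -0.11. Right, the median (point) and range (line) of the log2 fold change for groups of repeats with the number of elements in brackets; the MERVL group lies at 0.06 and SINE B2 and B3 at 0.53.

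The knockdown embryos were injected too, and their fold changes over the same 4 non-injected libraries can be set beside those of the LacZ embryos, though the shared libraries make the 2 sets dependent and no agreement between them was tested. For Prkcd the authors' deposited table gave -1.12 ± 0.21 in LacZ control and -1.04 ± 0.21 in knockdown, both over non-injected. By the authors' deposited table, Serpine2 stood at 1.25 ± 0.25 in both and Fbxw22 at 1.0 ± 0.23 and 1.02 ± 0.23. The authors' deposited table put Ccl11 at 1.64 ± 0.40 and 1.88 ± 0.40 and Ldhb at 0.97 ± 0.23 and 1.13 ± 0.22. Other genes had values further apart. The authors' deposited table gave Tmem37 -1.35 ± 0.38 and 0.29 ± 0.38 and Gcm1 -1.09 ± 0.40 and 0.76 ± 0.40. For Tmem37 and Gcm1 the test of knockdown over LacZ control in the authors' deposited table gave 1.64 and 1.86 (DESeq2 adjusted p = 0.0131 and 0.00385). Both genes were picked for large falls in LacZ control, and that test uses the same LacZ libraries. It is therefore tilted towards a rise and is no independent check. The authors' deposited table gave Zdhhc12 -1.43 ± 0.38 and -0.25 ± 0.37, and its difference between the injected groups, did not pass the test (adjusted p = 0.0679). For Cirbp the authors' deposited table gave 1.14 ± 0.29 and 1.94 ± 0.29, with a difference of 0.80 between the injected groups that did not pass either (adjusted p = 0.119).

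**Figure D5:**
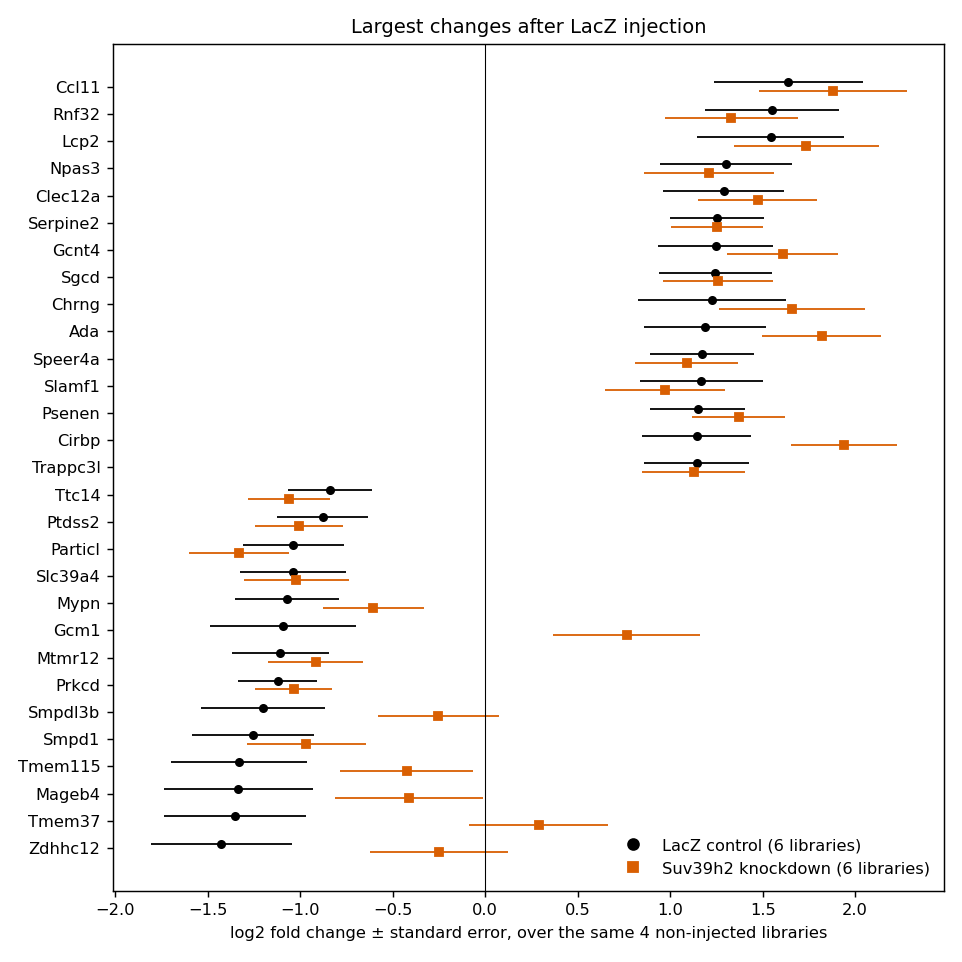
Log2 fold change with standard error (x axis) over the same 4 non-injected libraries for 15 of the largest rises and 14 of the largest falls after LacZ injection (rows), in LacZ control (black circles) and Suv39h2 knockdown (orange squares). Prkcd and Serpine2 lie close together in both, whereas the values of Tmem37 and Gcm1 differ by 1.64 and 1.86.

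The minimum mean count of 10, taken over all libraries including those of the knockdown, decides which calls are described. Just outside it lay the called genes Serpinb1a (9.35), Slc38a2 (9.23) and Defb41 (8.94), with log2 fold changes of 0.91, 0.80 and 1.61 in the authors' deposited table. Just inside lay Gcm1 (11.3), Ccl11 (12.7) and Nrk (14.6), with -1.09, 1.64 and 0.98 in the authors' deposited table. Below the minimum 139 further genes carry an adjusted p under 0.05, of which 95 have a mean count under 1, and the median size of their shrunken fold changes was 0.06.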

How the data were processed

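RNA of 6 LacZ-injected and 4 non-injected libraries was compared through the authors' own tables of genes and repeats. The submitters' processing notes name the build GRCm38.p5 and the tools STAR 2.5.2b (aligner), SAMtools, HTSeq 0.9.1 (read counter) and DESeq2 1.18.1 (test), without the settings. RUVSeq correction and shrinkage are known only from the names of the deposited tables. No source used here gives the annotation, the number of correction factors or how repeat reads were assigned. The first value column of a table is, per the file headers, a mean of counts after size factors, a signal. The authors' log2 fold changes and standard errors, their test statistic (a score) and their p-values, raw and adjusted, fill the other columns. Benjamini-Hochberg adjustment over 29288 genes gave the deposited adjusted p-values back to within 1.5e-14. The tables hold 0 columns of single libraries, so depth is unknown and no refit, batch check or library check was made.

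Genes were matched to GENCODE vM21 (49326 of 49585 identifiers) for symbols, positions, transcript GC and opposite-strand exon overlap. Counts, medians and readjusted p-values were computed with Python 3.11.15, pandas 2.3.3 and numpy 2.4.6, and the adjustment step was tested on simulated data. A call is a deposited adjusted p under 0.05 at a mean count of 10 or more. Named genes are the 15 largest rises and 15 largest falls among calls with a proper symbol, the 5 highest per exon kilobase in each direction, up to 4 called members a list in each direction, and Suv39h1 and Suv39h2. Some of these are not reported here. The comparison, the 40 gene lists and the repeat groups were chosen with earlier results of these data known. The 13 mitochondrially encoded genes on 1 list all have a mean count of 0. Alternatives were the genes adjusted over, the minimum mean, the threshold, the genes counted and, chosen after seeing the data, a p from the fold change over its standard error.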

Additional observations from a re-analysis of the deposited data

How the results depend on the processing

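The 93 calls became 74 with adjustment over every deposited p-value, 62 over the described genes, 137 and 71 at a minimum mean count of 1 and 100, 80 for protein-coding genes and 68 without opposite-strand overlap. They became 24 at an adjusted p under 0.01, 149 at 0.1 and 43 with the fold change over its standard error, a test added after seeing the data. Rises outnumbered falls in each of these settings. The 0 called repeats stayed at 0 with adjustment over repeats alone, at a minimum of 100 and at 0.01. They became 2 at a deposited adjusted p under 0.1. With adjustment over the repeats alone the smallest adjusted p was 0.196, so none lay under 0.1. Of 41 named called genes, 35, 32 and 24 kept the call with adjustment over every p-value, over the described genes and with the fold change over its standard error. Tmem115, Smpdl3b, Tnpo3, Kpna7, Tcstv3 and Slamf1 lost it in all 3, and Slc39a4, Ptdss2 and Chrng in the latter 2. At a minimum of 100, the list medians of cumulus markers (-0.21, 3 genes) and sperm transcripts (0.23, 1 gene) changed sign, and 36 others moved by little. No paired analysis was possible because the tables hold no values of single libraries, and leaving out each replicate was not run for the same reason. Depth per library, the spread within groups and the weight of any 1 library are therefore unknown.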
